A study of Mus musculus with 2 samples.

Results

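The 45 genes described here are the DNA replication and mitosis genes that serve as markers of dividing cells, and all 45 were found among the 55487 genes measured in both libraries. They were chosen by symbol, 15 for roles in the S phase of the cell cycle, when DNA is copied, and 30 for roles in mitosis, when the copied chromosomes are parted. They were measured in single CD4 T cells of 8-week-old male wild-type (WT) C57BL/6J mice, taken from spleen (SPLN) and from the brown (BAT), subcutaneous (SAT) and visceral (VAT) fat depots. Live cells positive for T cell receptor beta, CD3 and CD4 were sorted in 2 rounds. Cells of 8 samples, each carrying its own hashtag antibody, were pooled in each of 2 droplet libraries (experiments 1 and 2), which gave 4 hashed samples of every tissue. Replicates 1 and 2 of a tissue come from experiment 1, and replicates 3 and 4 from experiment 2. No group was treated and no gene was altered. Fat was digested with collagenase II and spleen was dissociated by force alone, so digestion and tissue cannot be told apart between fat and spleen. The labels call the samples duplicates without saying that they are separate animals. P-values of tests on hashed samples therefore measure the spread between these samples, which may be technical. Tests between classes of cells on sums per library pool the hashed samples and tissues, and their only replicates are the 2 libraries. The visceral depot is not specified.

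A T cell that starts to divide loads the Mcm helicase onto replication origins, raises its supply of deoxynucleotides and copies its DNA with the help of the sliding clamp. It then condenses the chromosomes, builds a spindle and separates the chromosomes under the control of cyclin-dependent kinase and the anaphase-promoting complex. Most circulating CD4 T cells rest outside this cycle, and T cells that have met antigen or cytokine in a tissue, regulatory T cells included, can re-enter it. Transcription of the S phase genes is known to be driven by E2F factors, and that of the mitosis genes by complexes that recognise the CHR element, often together with the CCAAT-binding factor NF-Y.

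The promoters of the members differed in these motifs by phase, and the sequences below show 3 of the most motif-rich of each phase. RefSeq promoters on GRCm38.p6 (mm10), from 250 bases before to 50 bases after the gene's start, were matched by symbol for 37 of the 45 members, 13 of S phase and 24 of mitosis. Both strands were searched for the E2F forms TTTCCCGC, TTTGGCGC and TTCCCGCC, the CHR forms TTTGAA and TTCGAA, and CCAAT, with overlapping matches counted. An E2F form was present in 8 of the 13 S phase promoters and 0 of the 24 mitosis promoters, against 3.21% of all 32851 promoters in the table. A CHR form was present in 2 of the 13 S phase promoters and 19 of the 24 mitosis promoters (79.2%), against 19.2% of all. CCAAT was present in 9 of the 13 and 21 of the 24, against 37.4% of all. These are matches of letters and no measure of binding. Promoters of 3 helicase subunits of S phase follow, written 5′ to 3′ along the gene's strand with every match in capitals:
Mcm3, chr1:20820263-20820562, minus strand: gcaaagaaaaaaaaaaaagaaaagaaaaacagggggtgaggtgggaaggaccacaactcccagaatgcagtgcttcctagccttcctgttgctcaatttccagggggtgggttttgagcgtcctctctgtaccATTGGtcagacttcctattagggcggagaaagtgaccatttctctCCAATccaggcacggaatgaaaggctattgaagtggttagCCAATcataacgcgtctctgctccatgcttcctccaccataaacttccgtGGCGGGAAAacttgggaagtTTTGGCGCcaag
Mcm7, chr5:138171834-138172133, minus strand: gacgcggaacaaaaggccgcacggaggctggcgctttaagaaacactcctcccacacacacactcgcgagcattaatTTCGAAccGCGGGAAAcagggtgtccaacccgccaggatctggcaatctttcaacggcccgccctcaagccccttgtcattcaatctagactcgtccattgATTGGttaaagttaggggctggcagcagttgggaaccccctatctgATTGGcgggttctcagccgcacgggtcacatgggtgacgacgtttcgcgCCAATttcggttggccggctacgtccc
Mcm5, chr8:75109259-75109558, plus strand: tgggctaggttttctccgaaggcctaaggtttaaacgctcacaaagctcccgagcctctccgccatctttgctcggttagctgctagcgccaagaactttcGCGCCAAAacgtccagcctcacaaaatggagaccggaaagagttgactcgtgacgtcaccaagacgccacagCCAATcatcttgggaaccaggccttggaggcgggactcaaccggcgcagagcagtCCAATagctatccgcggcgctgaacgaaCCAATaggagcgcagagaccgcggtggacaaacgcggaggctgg
In Mcm3, 2 of the 3 E2F matches overlap in one capital run. Promoters of 3 mitosis members follow in the same form. Top2a encodes the topoisomerase that untangles copied chromosomes, Ube2c a ubiquitin-conjugating enzyme of the anaphase-promoting complex, and Cks1b a small subunit that binds cyclin-dependent kinases:
Top2a, chr11:99024140-99024439, minus strand: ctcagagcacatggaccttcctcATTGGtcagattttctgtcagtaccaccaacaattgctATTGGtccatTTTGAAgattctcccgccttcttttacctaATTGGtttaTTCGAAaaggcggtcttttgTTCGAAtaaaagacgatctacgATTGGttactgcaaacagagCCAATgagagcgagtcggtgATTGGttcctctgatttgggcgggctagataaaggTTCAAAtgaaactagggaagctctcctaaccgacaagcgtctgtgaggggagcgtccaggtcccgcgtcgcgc
Ube2c, chr2:164769679-164769978, plus strand: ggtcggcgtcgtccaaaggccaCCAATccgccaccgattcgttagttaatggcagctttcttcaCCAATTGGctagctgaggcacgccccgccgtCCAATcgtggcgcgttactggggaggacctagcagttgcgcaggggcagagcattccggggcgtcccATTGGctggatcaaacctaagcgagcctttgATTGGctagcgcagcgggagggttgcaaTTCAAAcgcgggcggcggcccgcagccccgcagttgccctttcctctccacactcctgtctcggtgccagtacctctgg
Cks1b, chr3:89418242-89418541, minus strand: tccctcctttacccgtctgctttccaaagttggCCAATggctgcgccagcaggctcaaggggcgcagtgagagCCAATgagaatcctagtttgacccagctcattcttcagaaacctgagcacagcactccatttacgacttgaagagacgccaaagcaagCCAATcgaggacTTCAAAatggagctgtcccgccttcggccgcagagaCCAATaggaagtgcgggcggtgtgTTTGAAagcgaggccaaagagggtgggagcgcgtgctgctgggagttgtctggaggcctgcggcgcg
None of these mitosis promoters holds an E2F form, and Mcm7 is the only one of the printed S phase promoters with a CHR form.

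Of 4485 and 12239 barcodes in libraries 1 and 2, 3460 and 7288 were kept as single T cells, and 3320 and 6114 of those were given to a hashed sample. Median depth was 5974.5 and 4433 unique molecular identifiers (UMIs) per T cell. The hashtag of SAT replicate 1 was weak, with a separation of 2.31 robust standard deviations against 5.29 to 12.9 for the other hashtags. The libraries shared 20 barcodes. Erythroid transcripts were present in 33.8% and 9.48% of T cells. Summed myeloid markers reached 122 to 203 CPM (counts scaled to a total of 1000000 UMIs) in SAT, 120 to 155 in VAT, 65.8 to 109 in BAT and 85.0 to 91.8 in SPLN, while B cell markers were lowest in SAT (141 to 196) and VAT (169 to 180) and reached 207 to 253 in SPLN. Their part in the differences between tissues was not tested.

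The members ranged from a few abundant transcripts to many rare ones held by few cells, and only Hmgb2 and Smc4 were found in most T cells. A UMI count from the 3′ end does not grow with transcript length, so CPM can be compared between genes, although the treatment of reads shared with pseudogene copies is not given in the sources used here and levels of such genes are uncertain. Hmgb2, a chromatin protein that bends DNA, had 756 and 562 CPM over all T cells of libraries 1 and 2. Smc4, the core ATPase of condensin, had 353 and 266 CPM, and Stmn1, which destabilises microtubules, had 147 and 121 CPM. Pcna, the sliding clamp, had 89.4 and 70.4 CPM, and Cenpa, the histone variant of centromeres, had 50.8 and 46.4 CPM. At the other end were Kif20a, a kinesin of cytokinesis, with 3.64 and 1.13 CPM and Cdc6, a loader of the helicase, with 3.46 and 1.81 CPM. Bub1, a checkpoint kinase, had 3.73 and 1.65 CPM, Plk1, a mitotic kinase, had 5.86 and 1.87 CPM, and Bub1b, its partner in the spindle checkpoint, had 6.00 and 1.93 CPM. At least 1 UMI of Hmgb2 was found in 79.4% and 66.4% of T cells and of Smc4 in 66.9% and 51.3%, against 1.18% and 0.343% for Kif20a. Mki67, which coats mitotic chromosomes and is the usual proliferation marker, lay between, with 71.5 and 23.3 CPM and a UMI in 6.73% and 3.16% of T cells.

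Because of the abundant members, holding at least 3 of the 45 genes did not single out dividing cells. It was met by 2580 of 3460 T cells in library 1 (74.6%, exact 95% binomial interval 73.1 to 76.0) and 3855 of 7288 in library 2 (52.9%, 51.7 to 54.0). In a reference of naive-like cells, with Dapl1 and Ccr7 and without Foxp3, Cxcr3 or Cxcr6, the share was as high, 75.0% of 640 cells and 55.4% of 1255 cells, at median depths of 6385 and 5149 UMIs. After every cell was thinned to 1300 UMIs, which left out 4 and 570 shallower cells, the shares were 13.9% and 10.3% of T cells and 8.59% and 6.23% of the reference. These intervals cover counting error only.

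A restricted set of 32 members was therefore counted beside the full set. It leaves out Stmn1, Hmgb2, Cks1b, Smc4, Pcna, Rrm1, Tacc3 and Mcm2 to Mcm7, 13 genes whose transcripts resting cells can hold. Some widely held genes remain in it. Among T cells with under 5 of the 32, Cenpa was found in 16.7% and 12.7% and Smc2 in 15.7% and 11.5%. Tacc3, which was left out, was found in 1.99% and 1.49% of them. The restricted share is therefore not a share of dividing cells. At least 3 of the 32 were found in 287 T cells of library 1 (8.29%) and 273 of library 2 (3.75%), against 2.66% and 0.876% of the naive-like reference. After thinning the shares were 1.97% and 1.16%, against 0.156% and 0.082% in the reference. At least 5 of the 32 were found in 94 cells (2.72%) and 109 cells (1.496%), and in 1 cell of the reference in each library. These few cells held 78.0% and 62.8% of all UMIs of the restricted set. They were deep, with median counts of 14356 and 10542 UMIs, and hashtag multiplets had been left out.

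**Figure D1:**
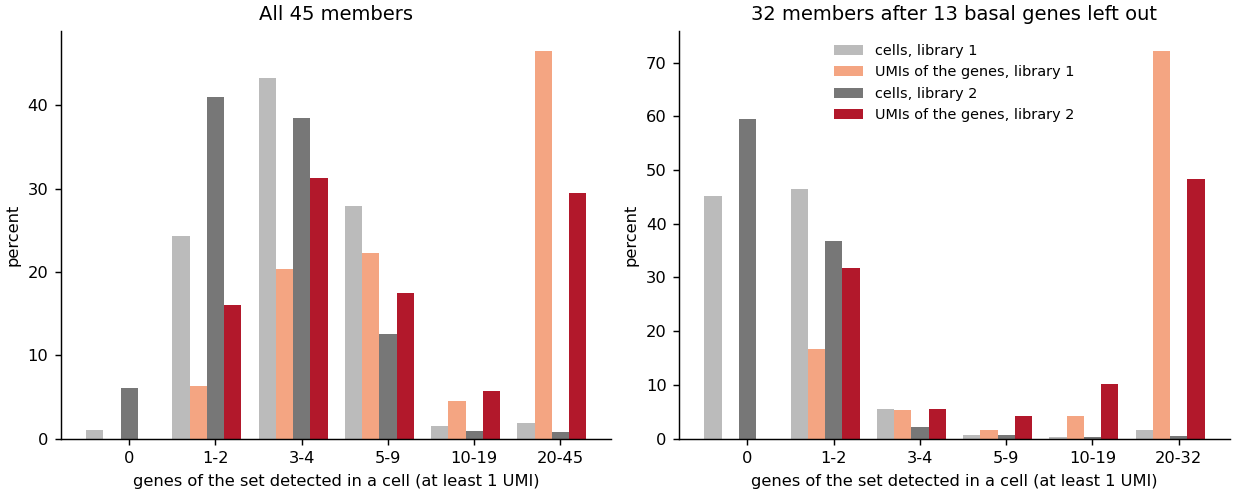
Percent of T cells and percent of the genes' UMIs (y axes) by the number of genes detected in a cell (x axis), for all 45 members and for the restricted 32, in libraries 1 and 2. In the restricted set, cells with at least 20 genes are 1.56% and 0.508% of T cells and hold 72.2% and 48.4% of the UMIs.

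The rare members were concentrated in the same cells, by construction of the set, and the degree differed between genes. Of Bub1, 100% and 88.9% of UMIs lay in the cells with at least 5 of the 32 members, of Hmmr, a spindle-assembly protein, 99.2% and 95.5%, and of Ccna2, the cyclin of S phase and mitotic entry, 97.9% and 96.8%. Birc5, a subunit of the chromosomal passenger complex, had 96.8% and 95.1% of its UMIs there, Pclaf, a clamp-associated factor, 96.3% and 93.1%, and Mki67 88.3% and 76.6%. The abundant genes were spread more widely. Those cells held 44.6% and 31.3% of Hmgb2 UMIs, 27.4% and 18.6% of Pcna UMIs, 25.4% and 15.8% of Mcm2 UMIs, and 20.7% and 12.6% of Mcm4 UMIs. Mcm2 and Mcm4 are helicase subunits. Cdt1, an origin licensing factor that belongs to the restricted set, also had only 21.4% and 15.8% of its UMIs there.

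Across all T cells, members of mitosis varied together more than those of S phase. The median Pearson correlation of log-scaled values was 0.371 over 435 pairs of mitosis members, 0.122 over 105 pairs of S phase members and 0.116 over 450 mixed pairs. The highest were Birc5 with Ccna2 (0.736) and Nusap1, a microtubule-bundling protein, with Ccna2 (0.728). Cells of both libraries enter these values and share depth, so they are a description. Clustering put 63 and 55 T cells into a cluster led by Hmgb2, Stmn1, histone transcripts, Top2a, Mki67 and Pclaf. Its S phase members made up 32.2 and 34.9 UMIs per 10000 and its mitosis members 188 and 176, against 2.06 to 4.85 and 4.20 to 13.4 in the other T cell clusters. Because these genes took part in the clustering, that contrast is no test.

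The cells with at least 5 of the 32 members came mostly from fat. Of the 94 and 109 cells, 44 and 47 carried a SAT hashtag, 32 and 32 a VAT hashtag, 9 and 11 a BAT hashtag, and 2 and 4 a SPLN hashtag, while 7 and 13 were unresolved. A UMI of Cxcr6, a chemokine receptor of tissue-resident T cells, was found in 68.1% and 53.2% of them, against 26.0% and 18.8% of all T cells. A UMI of Cxcr3, a chemokine receptor of type 1 T cells, was found in 77.7% and 78.0%, against 33.0% and 25.8%. Foxp3, the lineage factor of regulatory T cells, was found in 13.8% and 7.34%, against 9.05% and 5.57%. These cells are deeper, which can raise such shares, and the shares were not compared at equal depth. An erythroid UMI was found in 40.4% and 10.1% of them, near the shares among all T cells.

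Among cells without a Foxp3 UMI, those with a Cxcr6 UMI held more of nearly every member. Per library, 846 and 1321 cells with Cxcr6 were compared with 2301 and 5561 without, at median depths of 6091 and 4577 against 5947 and 4399 UMIs. Markers of other cell types moved with Cxcr6 as well. Summed myeloid markers (8 and 9 of 10 detected) were at 126 and 195 CPM with Cxcr6 and 94.7 and 108 without (9 and 9 of 10), and plasma cell markers (1 and 2 of 5) at 63.6 and 50.2 against 32.8 and 27.7 (2 and 2 of 5). B cell markers were lower with Cxcr6, at 124 and 144 against 197 and 212 CPM. S phase members summed to 7.38 and 5.001 UMIs per 10000 in cells with Cxcr6 and 3.06 and 2.72 in cells without, and mitosis members to 33.8 and 21.8 against 11.97 and 9.52. In edgeR's quasi-likelihood test on the sums per library (2 libraries, all 12505 genes that passed the filter on low counts), 42 of 45 members were higher at an adjusted p under 0.05 and 1 was lower, where 23.6% of all genes tested were higher and 21.8% lower. Sums cannot tell fewer expressing cells from less RNA per cell. When cells were summed for each hashed sample, and that sample was used as a block, 32 members could be tested, and 26 were higher and 1 lower. Their median log2 fold change was 1.13, against 1.79 over the 45 members in the sums per library. With T cells taken by markers, with under 3 UMIs of other cell types, 36 of 42 members were higher and 1 lower. With scaling by library size alone the median of all genes in this comparison shifted by 0.167 on the log2 scale, 4630 genes were higher and 1597 lower in place of 2955 and 2721, and 44 members were higher and 1 lower.

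In the sums per library, which pool the tissues, the size differed by role. Of the Foxp3-zero cells with Cxcr6 that were given to a tissue, 936 were from SAT, 757 from VAT, 183 from BAT and 100 from SPLN. The part of tissue makeup in these sizes was not tested. The 4 members of the mitotic kinase and passenger group (Aurka, Aurkb, Plk1, Birc5) had a median log2 fold change of 2.64, the cyclins with Cdk1 and Cks1b 2.24, the checkpoint and anaphase group (Ube2c, Cdc20, Bub1, Bub1b) 2.23 and the spindle group 2.00. Nucleotide supply (Rrm1, Rrm2, Tyms, Tk1) had a median of 1.85, the centromere group 1.79 and the helicase and licensing group 0.69. Nusap1 had 73.0 and 25.9 CPM in cells with Cxcr6 and 8.14 and 3.52 in cells without (log2 fold change 2.86, SE 0.13, edgeR adjusted p = 1.2e-30). Ube2c rose by 2.72 (SE 0.11, edgeR adjusted p = 2.6e-34), Plk1 by 2.73 (SE 0.27) and Aurkb, the kinase of the passenger complex, by 2.71 (SE 0.22). Mki67 had 166 and 59.9 CPM against 34.2 and 10.9 (2.17, SE 0.08, edgeR adjusted p = 2.8e-37). Top2a had 171 and 63.7 CPM against 28.5 and 13.2 (2.27, SE 0.08, edgeR adjusted p = 4.8e-38). Each of these values was higher with Cxcr6 in both libraries.

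Among S phase members Pclaf changed most, from 15.4 and 10.51 CPM in cells without Cxcr6 to 106 and 53.3 with it (2.39, SE 0.09, edgeR adjusted p = 1.4e-34). Rrm2, the regulated subunit of ribonucleotide reductase, had 46.4 and 23.0 CPM against 6.17 and 6.29 (2.20, SE 0.15). Tyms, which makes thymidylate, rose by 1.56 (SE 0.11), Mcm3, a helicase subunit, by 0.89 (SE 0.10) and Pcna by 0.63 (SE 0.07). The members that did not pass were Cdt1 (0.18, SE 0.15, edgeR adjusted p = 0.344) and the helicase subunit Mcm7 (0.18, SE 0.08, edgeR adjusted p = 0.0701). Hmgb2 rose by 1.478 (SE 0.04), from 454 and 387 to 1517 and 1158 CPM. Smc4 was the member that fell, from 372 and 279 CPM without Cxcr6 to 263 and 168 with it (log2 fold change -0.80, SE 0.05, edgeR adjusted p = 3.8e-22). Its partner in condensin, Smc2, rose by 0.81 (SE 0.08).

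The share of cells holding the members differed the same way within hashed samples. With all 45 members, at least 3 were held by 69.3% of Cxcr6-positive and 62.9% of Cxcr6-zero cells on average over 15 hashed samples with at least 20 cells in both classes, a difference of 6.31 percentage points (SD 4.80), higher in 14 of 15 (exact sign-flip permutation test, two-sided p = 0.000549, 0.0022 adjusted over the 4 class pairs). With the restricted set the difference was 6.71 points (exact permutation p = 0.000183, adjusted 0.000732), and after thinning 2.39 points (exact permutation p = 0.000977, adjusted 0.00391). Thinning changed the member counts only. The classes stayed as set at full depth, so thinning does not remove depth from the class calls. By sample, restricted shares in Cxcr6-positive cells were 12.9%, 18.2%, 9.09% and 9.52% in BAT, 19.7%, 13.97%, 10.2% and 11.3% in SAT, 15.7%, 11.3%, 8.72% and 10.1% in VAT, and 4.76%, 0% and 3.23% in SPLN replicates 2 to 4. In Cxcr6-zero cells they were 1.61%, 2.67%, 1.6% and 1.16% in BAT, 9.77%, 3.896%, 3.04% and 5.96% in SAT, 7.59%, 8.09%, 3.65% and 2.64% in VAT, and 4.61%, 0.551% and 1.296% in SPLN. Every fat sample was higher in its Cxcr6-positive cells, and the 3 spleen samples were mixed.

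The difference by Cxcr6 averaged 10.7 points in BAT and 8.13 in SAT, with 5.99 in VAT and 0.510 in SPLN. It exceeded that of SPLN by 10.2 points in BAT and 7.71 in SAT (exact permutation within experiments, p = 0.0556 for both) and by 5.57 in VAT (exact permutation p = 0.111). After thinning the difference by Cxcr6 exceeded that of SPLN by 2.42 points in BAT, 2.22 in SAT and 2.08 in VAT (exact permutation p = 0.278, 0.222 and 0.444). These comparisons, with 4 fat and 3 spleen samples, cannot give a p under 0.0556 at any depth.

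**Figure D2:**
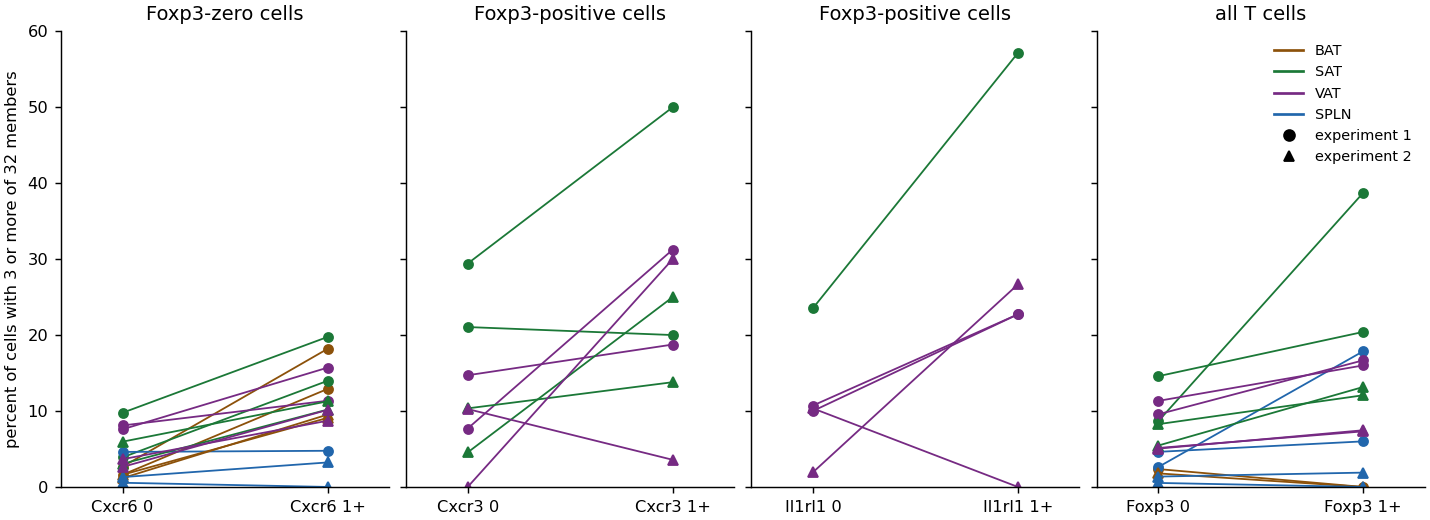
Percent of cells with at least 3 of the 32 restricted members (y axis) in cells with and without a UMI of Cxcr6 (Foxp3-zero cells), of Cxcr3 and Il1rl1 (Foxp3-positive cells) and of Foxp3 (all T cells). Each line joins the classes of 1 hashed sample; the Cxcr6 lines differ by 6.71 points on average.

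Few members differed between Foxp3-positive cells as a whole and Foxp3-zero cells. In 313 and 406 Foxp3-positive cells S phase members summed to 4.29 and 4.71 UMIs per 10000 and mitosis members to 18.02 and 18.3, against 4.34 and 3.21, and 18.4 and 12.1, in Foxp3-zero cells. By edgeR 3 of 45 members were higher and 0 lower (8 members passed an unadjusted p of 0.05, and DESeq2 called 1 higher), where 8.11% of all genes were higher and 7.11% lower. These were Smc4 with 473 and 441 CPM against 340 and 255 (0.47, SE 0.08, edgeR adjusted p = 5.2e-04), Cenpa (0.49, SE 0.11, edgeR adjusted p = 0.00325) and Birc5 (0.65, SE 0.18, edgeR adjusted p = 0.0192). Mki67 differed by 0.18 (SE 0.23, edgeR adjusted p = 0.689). Holding at least 3 of the 45 members was 2.07 points more frequent in Foxp3-positive cells over 14 hashed samples, higher in 9 (exact permutation p = 0.289). With the restricted set, which includes Cenpa and Birc5, the difference was 5.45 points, higher in 11 of 14 (exact permutation p = 0.0061, adjusted 0.0122). With the restricted set after thinning it was 0.627 points (exact permutation p = 0.480). When T cells were instead taken by markers, with under 3 UMIs of other cell types, the directions turned. The share with at least 3 members was 3.10 points lower in Foxp3-positive cells (difference -3.10). Of 41 members tested 2 were higher and 9 lower, where 593 of all 11363 genes tested were higher and 456 lower. The marker rule kept 57.8% and 77.3% of all T cells and 39.0% and 62.3% of those with Foxp3. Of cells with at least 5 of the 32 members it kept 37.2% and 53.2%, and of those with Foxp3 among them 3 of 13 and 0 of 8.

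Within Foxp3-positive cells, members were higher in those with Cxcr3, and the size differed between libraries. There were 97 and 119 cells with Cxcr3 and 216 and 287 without, at median depths of 6315 and 4657 against 5665.5 and 4098 UMIs. S phase members summed to 5.57 and 8.75 UMIs per 10000 with Cxcr3 and 3.60 and 2.36 without, and mitosis members to 21.5 and 31.7 against 16.1 and 10.4. By edgeR 29 of 37 members that passed the filter were higher and 1 lower, where 3.14% of all genes were higher and 1.81% lower. Other settings kept few of these calls: DESeq2 called 0 of the 37 (34 passed an unadjusted p of 0.05 in edgeR), 4 of 5 testable members were higher with the hashed sample as a block, 0 of 9 after thinning, and 13 with multiplets kept. The median log2 ratio over the members was 0.717 in library 1 and 2.83 in library 2. Of the 37, Cdk1, Rrm2, Aurka, Aurkb, Gins2 and Tk1, among others, passed the filter on counts only through the cells with Cxcr3. Their direction was fixed by the filter and adds no support.

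Cdk1, the kinase that drives mitosis, had the largest change with Cxcr3 (3.55, SE 0.44, edgeR adjusted p = 4.8e-13), followed by Rrm2 (3.08, SE 0.36). Both passed the filter only through cells with Cxcr3, so their direction was fixed. Cdk1 had 29.5 and 56.0 CPM with Cxcr3 and 4.16 and 2.45 without, and Rrm2 27.0 and 85.4 against 8.31 and 3.26. Stmn1 rose by 2.22 (SE 0.18, edgeR adjusted p = 5.3e-30), from 91.5 and 19.6 CPM without Cxcr3 to 195 and 321 with it. Its log2 ratio was 1.09 in library 1 and 3.97 in library 2, so that SE and p do not reflect the spread between libraries. Mki67 had 62.9 and 133 CPM with Cxcr3 and 50.6 and 9.78 without. Pclaf had 25.7 and 162 CPM against 27.7 and 4.08, so the classes were close in library 1 and far apart in library 2. Smc4 was again lower (-0.40, SE 0.13, edgeR adjusted p = 0.0379). Few cells carry these values: 6 and 7 Foxp3-positive cells with Cxcr3 and 7 and 1 without held at least 5 of the 32 members. The share with at least 3 of the 45 members was 82.6% against 64.4% over the 8 SAT and VAT samples, which held at least 10 cells of both classes, a difference of 18.1 points (SD 19.7), higher in 7 of 8 (exact permutation p = 0.0156, adjusted 0.0312). With the restricted set it was 11.8 points (exact permutation p = 0.0703), and with the restricted set after thinning 4.76 points, higher in 7 and lower in 0 of 8 (exact permutation p = 0.0156, adjusted 0.0312).

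Cells of the Foxp3-positive group with Il1rl1, the receptor for IL-33 on tissue regulatory T cells, were higher in members of both phases, and the size differed between libraries. There were 86 and 52 such cells and 227 and 354 without, at median depths of 6933.5 and 4678 against 5543 and 4213 UMIs. Summed myeloid markers were higher with Il1rl1 too, at 204 and 188 CPM (7 and 2 of 10 markers detected) against 129 and 135 (9 and 5 of 10), and their part in the difference was not tested. Mitosis members summed to 29.5 and 23.1 UMIs per 10000 with Il1rl1 and 12.3 and 17.3 without, and S phase members to 5.68 and 6.96 against 3.59 and 4.26. By edgeR 23 of 38 members were higher and 1 lower, where 4.66% of all genes were higher and 3.16% lower. The 23 were 20 of the 25 mitosis members tested and 3 of the 13 S phase members; the difference between the phases was not tested. The median log2 ratio over the 38 members was 1.86 in library 1 and 0.69 in library 2. Of the 38 members 27 were above 0 in both libraries, and of the 23 called higher 21 were. Hmmr rose by 3.12 (SE 0.61, edgeR adjusted p = 1.9e-04), Birc5 by 2.52 (SE 0.34) and Mki67 by 1.72 (SE 0.27), from 18.9 and 49.5 to 127 and 83.1 CPM. Hmmr passed the filter on counts only through cells with Il1rl1 (33.8 and 15.4 CPM against 0.674 and 4.95), so its direction was fixed. The same holds for Cdc20, Tpx2, Cenpe and Tacc3, and these members add no support to the counts above. Smc4 was lower (-0.36, SE 0.10, edgeR adjusted p = 0.0193). DESeq2 called 2 members higher, the block by hashed sample 1 of 5, the thinned counts 1 of 8, and T cells taken by markers 1 of 10. Only 10 and 2 cells with Il1rl1 and 3 and 6 without held at least 5 of the 32 members. The share with at least 3 of the 45 members differed by 6.12 points, higher in 4 of 5 samples (exact permutation p = 0.312, where 5 samples allow none under 0.0625).

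Between tissues, Foxp3-zero cells of SAT and VAT held more of nearly every member than those of spleen, and BAT lay between. Sums of Foxp3-zero cells per hashed sample, 290 to 880 cells each, were compared by edgeR with experiment as a term, and 44 members passed the filter, all but Kif20a. S phase members summed to 524 ± 117 CPM in SAT, 443 ± 100.2 in VAT, 298 ± 77.4 in BAT and 236 ± 18.8 in SPLN (SD, n = 4). Mitosis members summed to 2292 ± 483 CPM in SAT, 1829 ± 654 in VAT, 1140.2 ± 248 in BAT and 779 ± 85.4 in SPLN (SD, n = 4). Much of that sum is Hmgb2 and Smc4, which averaged 241 and 352 CPM in SPLN and 1092 and 260.4 in SAT, and Smc4 went the other way. The restricted 32 members summed to 862 ± 284 CPM in SAT, 665 ± 359 in VAT, 283 ± 112 in BAT and 128 ± 33.4 in SPLN (SD, n = 4).

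Mki67 had 159, 111, 46.0 and 49.8 CPM in SAT replicates 1 to 4, 123, 88.0, 27.2 and 31.2 in VAT, 17.8, 35.5, 16.04 and 5.48 in BAT, and 3.73, 2.75, 2.08 and 5.56 in SPLN. Every SAT and VAT sample lay above every spleen sample, BAT overlapped both VAT and spleen, and experiment 1 was higher than experiment 2 in SAT and VAT. Top2a had 153, 109, 64.3 and 52.4 CPM in SAT, 130, 72.6, 24.2 and 38.0 in VAT, 20.5, 35.1, 13.99 and 3.79 in BAT, and 5.12, 5.11, 2.59 and 8.24 in SPLN, the same order as Mki67. Cdk1 had 33.9, 20.8, 18.6 and 14.5 CPM in SAT, 35.4, 22.9, 9.55 and 11.8 in VAT, 4.93, 11.998, 5.46 and 2.95 in BAT, and 1.40, 0.393, 1.82 and 3.34 in SPLN. Its SAT and VAT samples were again all above spleen. Ube2c, with 0.778 to 1.56 CPM in spleen, 24.0 to 63.1 in VAT and 27.4 to 62.6 in SAT, was above spleen in 3 BAT samples (12.3 to 20.8) and within its range in BAT replicate 4 (0.843).

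Among S phase members, Pclaf had 92.7, 50.6, 41.0 and 39.8 CPM in SAT, 79.2, 45.9, 20.1 and 30.2 in VAT, 3.03, 42.0, 25.3 and 2.53 in BAT, and 0.4658, 3.93, 1.297 and 9.79 in SPLN. BAT split, with replicates 2 and 3 near VAT and replicates 1 and 4 within the range of spleen. Rrm2 had 33.3, 39.9, 22.7 and 18.96 CPM in SAT, 40.3, 11.7, 10.53 and 11.2 in VAT, 1.52, 10.6, 9.56 and 4.21 in BAT, and 0.932, 0.787, 1.04 and 6.46 in SPLN. VAT replicate 1 stood apart from its other samples. Mcm3 differed less, with 31.6 to 47.8 CPM in SAT, 25.6 to 47.0 in VAT, 18.4 to 30.9 in BAT and 15.8 to 23.6 in SPLN. Pcna had 85.3 to 138 CPM in SAT, 80.1 to 111 in VAT, 52.6 to 75.2 in BAT and 54.8 to 61.0 in SPLN, so BAT and spleen overlapped.

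**Figure D3:**
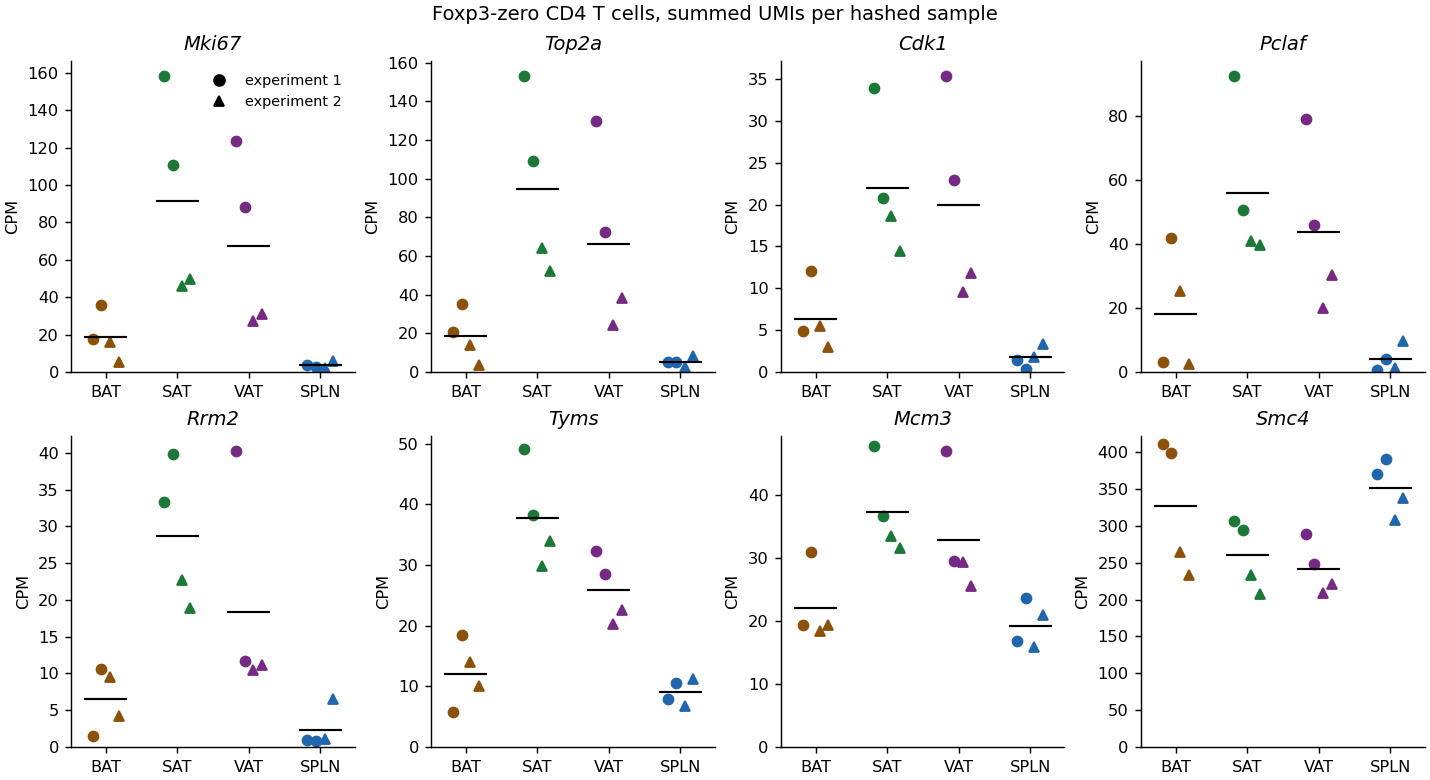
CPM (y axes, from 0) of Mki67, Top2a, Cdk1, Pclaf, Rrm2, Tyms, Mcm3 and Smc4 in Foxp3-zero cells of each hashed sample by tissue, with a line at the mean of 4. Mki67 is at 46.0 to 159 CPM in SAT and 2.08 to 5.56 in SPLN, while Smc4 is lower in SAT (207 to 306) than in SPLN (308 to 391).

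Against spleen, 41 of 44 members were higher in SAT and 1 was lower by edgeR, where 21.6% of all genes were higher and 19.3% lower. Without SAT replicate 1, whose hashtag was weak, 40 were higher. All 4 samples lay above all 4 of spleen for 40 of the 44 members and below for 1, where 19.6% of all genes tested lay above and 7.87% below. After thinning 23 members could be tested, and 15 were higher in SAT and 11 in VAT. The median log2 fold change was 1.24 over S phase and 3.44 over mitosis members. Ccna2, at 9.48 to 20.02 CPM in SAT and 0 to 0.4658 in spleen, changed most (fitted 5.59, SE 0.63, edgeR adjusted p = 7.2e-08). Spleen held 3 UMIs of Ccna2 in all against 172 in SAT, a ratio per UMI of 63.7 with an exact 95% counting interval of 21.4 to 312. Next was Ube2c (5.10, SE 0.48, edgeR adjusted p = 3.3e-09). Ccna2 and Ube2c passed the filter on counts only through fat samples, as did Cdk1, Hmmr, Cenpf, Ccnb2, Aurka, Aurkb, Plk1, Bub1, Bub1b, Tpx2 and Tk1, among others. Their direction against spleen was fixed by the filter, so their part in the counts of called and non-overlapping members adds no support. Spleen alone would not have passed Mki67, Top2a, Pclaf or Rrm2 either. Mki67 rose by 4.30 (SE 0.29, edgeR adjusted p = 8.4e-12), Top2a by 3.84 (SE 0.30, edgeR adjusted p = 1.6e-10), Pclaf by 3.39 (SE 0.53) and Rrm2 by 3.09 (SE 0.47). Hmgb2 rose by 2.04 (SE 0.13), from 199 to 270.2 CPM in spleen to 904 to 1298 in SAT, and Stmn1 by 1.09 (SE 0.19). The helicase and licensing group had a median of 0.81, with 7 of 9 higher; Cdt1 (0.28, SE 0.20) and Mcm4 (0.25, SE 0.14) did not pass. Smc4 was the exception again, at 306, 295, 233 and 207 CPM in SAT against 369.9, 391, 308 and 337 in spleen (-0.57, SE 0.08, edgeR adjusted p = 2.2e-06).

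Against spleen, 39 members were higher in VAT and 1 was lower by edgeR, where 20.3% of all genes were higher and 17.2% lower. The medians were 1.01 over S phase and 3.04 over mitosis members. The members that passed the filter only through fat samples add no support here either. Ccna2 rose by 45.5-fold per UMI (exact 95% counting interval 15.2 to 224, 127 UMIs), and Ube2c rose by 4.84 on the log2 scale (SE 0.49), Mki67 by 3.84 (SE 0.30) and Top2a by 3.28 (SE 0.32). Mcm4, Mcm7, Cdt1 and Smc2 did not pass, and Smc4 fell by 0.62 (SE 0.08, edgeR adjusted p = 7.2e-07). No member passed between SAT and VAT: 0 were called in either direction by edgeR and by DESeq2, 9 were higher in SAT at an unadjusted p of 0.05, and 2.72% of all genes were higher and 2.03% lower. The median over members was 0.32, and Mki67 differed by 0.46 (edgeR adjusted p = 0.149). Without VAT replicate 1, 7 members were higher in SAT.

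In BAT 14 members were higher than in spleen and 0 lower by edgeR, where 5.76% of all genes were higher and 2.89% lower. At an unadjusted p of 0.05, 29 were higher and 0 lower, and DESeq2 called 14 higher and 0 lower. Of the 14, 13 were mitosis members. Ube2c rose by 3.39 (SE 0.62, edgeR adjusted p = 7.1e-04), Hmmr by 3.24 (SE 0.77), Cenpf, a kinetochore protein, by 3.003 (SE 0.56), Birc5 by 2.52 (SE 0.62), the mitotic cyclin Ccnb2 by 2.32 (SE 0.57) and Mki67 by 2.16 (SE 0.39, edgeR adjusted p = 6.1e-04). Ccna2 was 11.6-fold higher per UMI (exact 95% counting interval 3.57 to 59.8, 27 UMIs, edgeR adjusted p = 0.029). Top2a, Cdk1, the spindle-midzone protein Prc1, Kif23, Hmgb2 and Cenpa were the others. Ube2c, Hmmr, Cenpf, Ccnb2, Ccna2 and Cdk1 passed the filter only through fat samples, so their calls add no support. The S phase member that rose was the helicase subunit Mcm5 (0.65, SE 0.19). All BAT samples lay above all spleen samples for 8 of the 44 members and below for 0, where 4.28% of all genes tested lay above and 4.33% below. The count was 25 without SPLN replicate 4, 7 without BAT replicate 3, 8 without SPLN replicate 2 and 9 without SPLN replicate 1. It was 2 of 23 testable members after thinning and 4 of 37 with T cells taken by markers. Smc4 differed from spleen by -0.10 (SE 0.08, edgeR adjusted p = 0.53).

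Against SAT, 36 members were lower in BAT and 1, Smc4, was higher (0.47, edgeR adjusted p = 5.4e-05), where 18.4% of all genes were lower and 16.6% higher. The median was -1.482, and Mki67 differed by -2.14 (SE 0.22, edgeR adjusted p = 4.6e-08). Against VAT, 28 members were lower in BAT and Smc4 was higher, where 16.8% of all genes were lower and 15% higher. Mki67 differed by -1.68 and Top2a by -1.71. Without VAT replicate 1, 15 members were lower than in VAT, and without BAT replicate 1, 16 were.

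**Figure D4:**
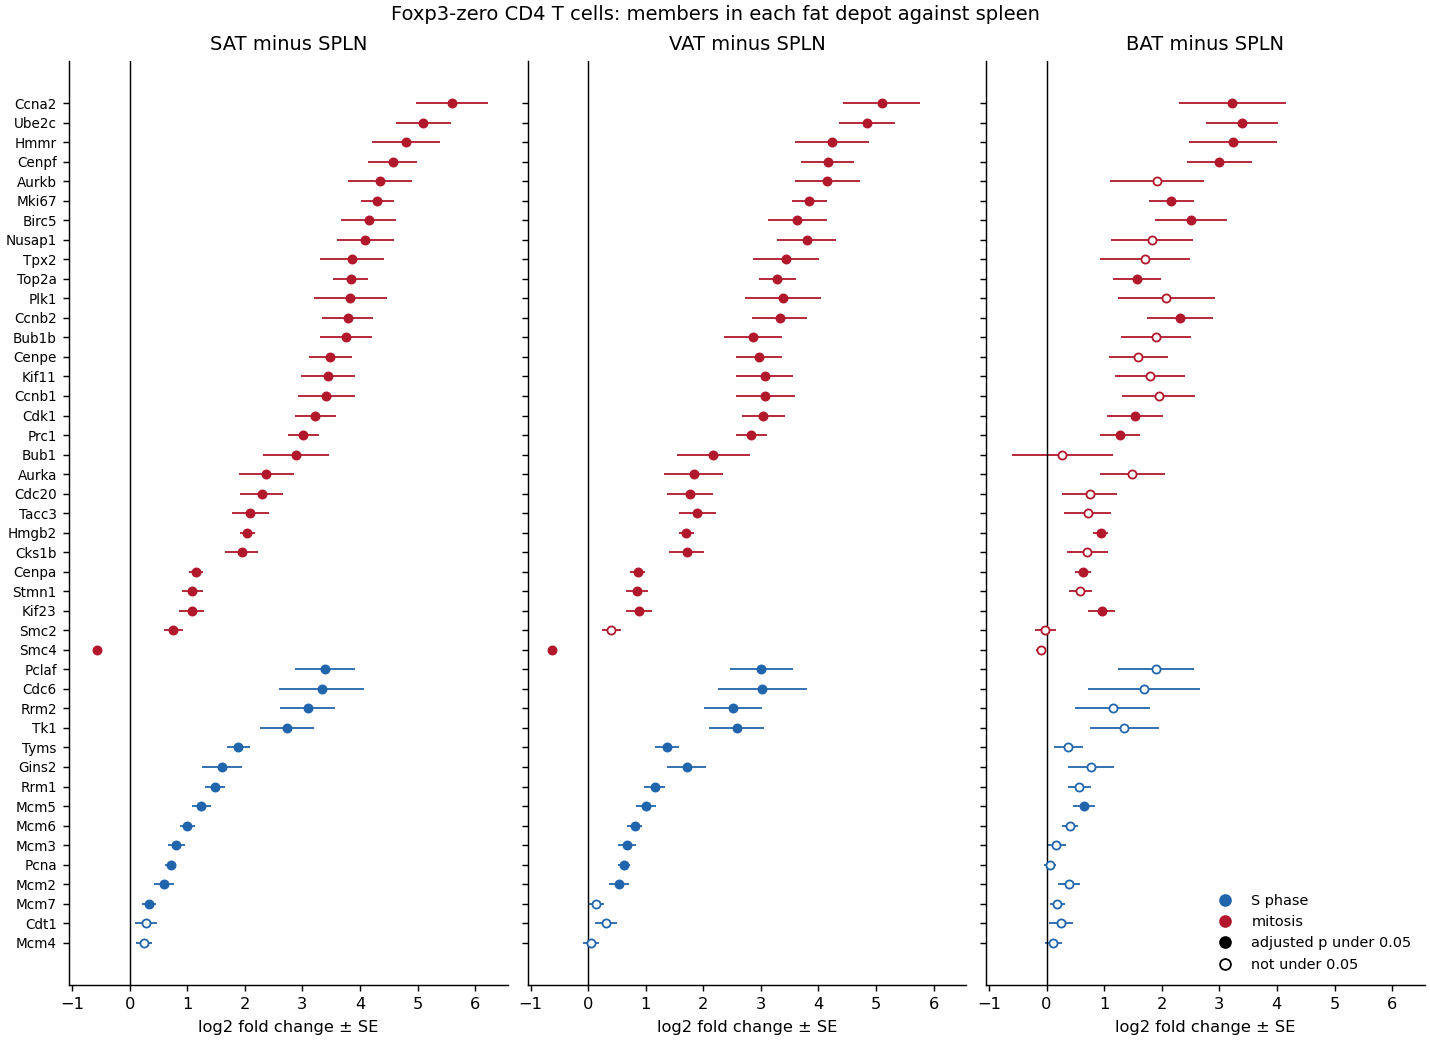
Log2 fold change ± SE (x axis) of the 44 tested members (y axis) in Foxp3-zero cells of SAT, VAT and BAT minus SPLN, blue for S phase and red for mitosis, filled where the edgeR adjusted p is under 0.05. The mitosis members reach 5.59 in SAT, and Smc4 lies below 0 in SAT and VAT.

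The order of BAT and spleen by the share of cells holding members depended on the set of members and on depth. Cells called for BAT replicates 1 to 4 had median depths of 5350, 5400, 4124 and 4070.5 UMIs. Those called for SPLN were deeper, at 6602, 6639, 5035 and 4965. Over all T cells, at least 3 of the 32 members were found in 15.1%, 11.5%, 5.87% and 8.52% of cells in SAT, 11.8%, 10.4%, 5.23% and 5.26% in VAT, 2.22%, 4.13%, 2.51% and 1.70% in BAT, and 3.88%, 4.78%, 0.491% and 1.39% in SPLN. All SAT and VAT samples were above all spleen and BAT samples, while BAT and spleen overlapped, with means of 2.643% and 2.638%, although 14 members were higher by CPM in Foxp3-zero cells of BAT. SAT exceeded SPLN by 7.62 points (8.98 in experiment 1 and 6.25 in experiment 2; exact permutation p = 0.0556, 0.0833 adjusted over 6 tissue pairs). VAT exceeded SPLN by 5.54 points (exact permutation p = 0.0556). After thinning the means were 3.05% in SAT, 2.03% in VAT, 0.722% in BAT and 0.269% in SPLN. With all 45 members the mean shares were 69.1% in SAT, 68.4% in VAT, 65.5% in SPLN and 58.3% in BAT, and after thinning 16.5%, 12.4%, 8.54% and 10.53% in the same order. The unthinned BAT share goes against its higher CPM, so no order is read from that measure.

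**Figure D5:**
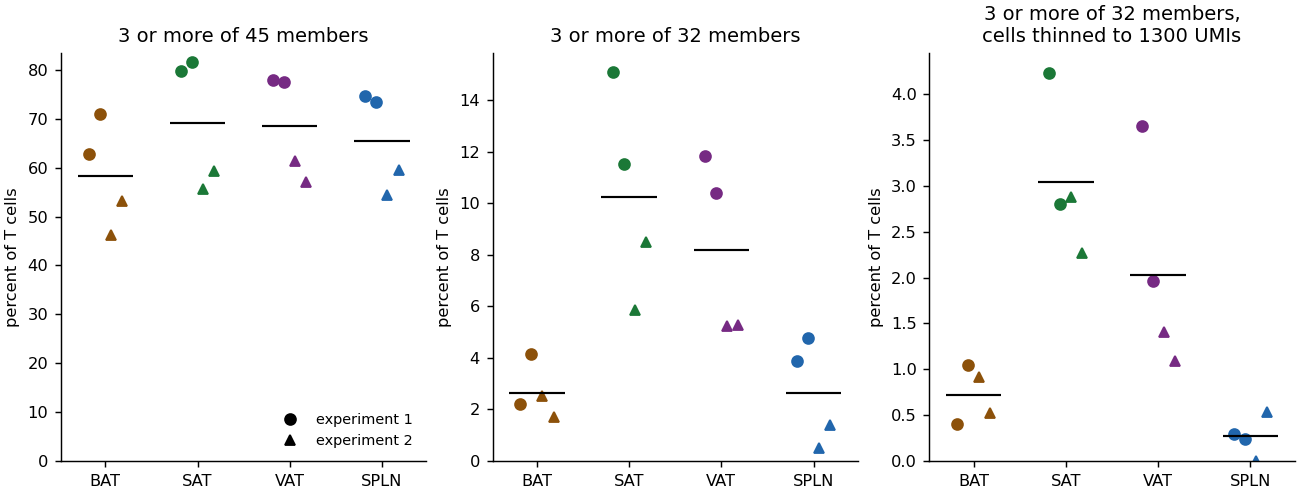
Percent of T cells per hashed sample (y axis) that hold at least 3 of the members, by tissue (x axis), for all 45 members, for the restricted 32, and for the 32 after thinning to 1300 UMIs, with a line at the mean of 4. With the restricted set SAT is at 5.87% to 15.1% and SPLN at 0.491% to 4.78%.

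The tissues also differed in how many Foxp3-zero cells had a Cxcr6 UMI. The share was 43.0% in SAT (33.6 to 48.2), 37.9% in VAT (27.5 to 46.0), 8.51% in BAT (6.64 to 10.97) and 4.77% in SPLN (3.52 to 5.86). Spleen held 100 Cxcr6-positive cells in all, 18 of them in replicate 1. Among Cxcr6-positive cells the mean restricted share over all 4 samples was 3.39% in SPLN (2.66% over the 3 samples with at least 20 cells), 12.4% in BAT, 13.8% in SAT and 11.5% in VAT, and among Cxcr6-zero cells 2.22%, 1.76%, 5.67% and 5.49% in the same order. Within Cxcr6-positive cells BAT exceeded SPLN by 9.04 points, SAT by 10.4 and VAT by 8.09 (exact permutation p = 0.0556 for each, 0.111 adjusted over 6 tissue pairs), and without SPLN replicate 1 by 9.24, 10.6 and 8.29. Between BAT and SAT the difference was -1.37 points (exact permutation p = 0.389). Within Cxcr6-zero cells BAT was 0.461 points below SPLN (difference -0.461, exact permutation p = 0.722) and 3.91 points below SAT (difference -3.91, exact permutation p = 0.0556).

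In Foxp3-positive cells the tissue differences were smaller and rested on few cells, 20 or more in 14 of 16 hashed samples, with BAT replicates 2 and 3 left out. By edgeR 5 of 21 testable members were higher in SAT than in SPLN and 1 lower, where 5.74% of all genes were higher and 4.22% lower. Tyms had 48.4, 43.4, 131 and 25.5 CPM in SAT against 21.7, 8.99, 18.1 and 0 in SPLN (2.20, edgeR adjusted p = 0.00931). The others were Mcm6 (1.83), Mcm3 (1.72), Cenpa (1.05) and Hmgb2 (0.93). Tyms and Mcm3 passed the filter only through SAT and VAT samples, so their direction was fixed by it. Mki67 overlapped between SAT (37.0, 29.0, 169 and 91.2 CPM) and SPLN (174, 24.0, 0 and 4.13 CPM). Spleen replicate 1 was high for a group of members: without it 16 were higher in SAT, and without SAT replicate 3 only 1 was. With T cells taken by markers 4 members could be tested and 0 were called. The restricted share was 21.1% ± 12.3 in SAT, 11.9% ± 5.17 in VAT and 6.44% ± 8.02 in SPLN (SD, n = 4), and SAT exceeded SPLN by 14.7 points (exact permutation p = 0.0556). In BAT replicates 1 and 4 it was 0 of 55 cells, which allows a share of up to 5.45%, and it was 1 of 17 and 1 of 15 cells in replicates 2 and 3.

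Smc4 differed in Foxp3-positive cells as it did in the others. It had 675, 656, 396 and 669 CPM in BAT, 393, 492, 355 and 409 in SAT, 281, 305, 306 and 325 in VAT, and 526, 674, 537 and 628 in SPLN. It was lower in SAT (-0.59, edgeR adjusted p = 0.00159) and VAT (-1.02) than in SPLN, and higher in BAT than in SAT (0.81) and VAT (1.23). BAT replicates 2 and 3 did not enter these fits, so the BAT arm is 2 samples, and the difference from SAT was not called without replicate 1 or without replicate 4. The difference from VAT was called with either of those left out. No other member was called in VAT against SPLN, BAT against SAT or BAT against VAT. VAT against SPLN gave 0 higher (3 of 4 passing an unadjusted p of 0.05 were higher, DESeq2 0, and 11 without SPLN replicate 1), where 6.63% of all genes were higher and 5.32% lower. For BAT against SAT 1.31% of all genes were higher and 0.855% lower, and for BAT against VAT 1.44% each. Between BAT and SPLN 0 members were called by edgeR and DESeq2, 0 passed an unadjusted p of 0.05, and 0.399% of all genes were higher and 0.019% lower. Between SAT and VAT 0 were called by both tools, 4 passed an unadjusted p of 0.05, and 0.133% of genes were higher and 0.247% lower.

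Other genes of the cycle, from 5 lists, were tested in the same comparisons. With Cxcr6, 31 of 37 other replication genes were higher and 2 lower, 51 of 53 other mitosis genes were higher and 0 lower, and 12 of 15 G1 cyclins, kinases and E2F factors were higher and 0 lower. Of all genes tested 23.6% were higher and 21.8% lower. Examples were Rad51ap1 (2.31), a recombination factor, Mcm10 (2.24), an initiation factor, and Esco2 (2.82), which acetylates cohesin. E2f8 rose by 2.42, E2f7 by 2.38 and E2f1 by 2.21. Cell cycle inhibitors and quiescence genes were split, 6 of 17 higher and 6 lower, which was not tested against the shares over all genes. Among them the kinase inhibitors Cdkn2a (2.90), Cdkn1a (2.64) and Cdkn2c (1.63) rose, and the quiescence factors Foxp1 (-1.58) and Klf2 (-1.4998) fell. Growth and Myc targets went the other way, with 1 of 12 higher (Odc1, 0.89) and 9 lower, among them Mybbp1a (-0.79) and Npm1 (-0.72).

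The same lists in SAT against SPLN gave 29 of 35 replication genes higher and 1 lower, 42 of 46 mitosis genes higher and 0 lower, and 8 of 13 G1 and E2F genes higher and 0 lower. Of all genes 21.6% were higher and 19.3% lower. Rad51ap1 rose by 3.86, E2f8 by 4.03 and Cdkn1a by 3.65. Inhibitors and quiescence genes were 7 higher and 5 lower of 15, and growth genes 1 higher (Odc1, 1.40) and 8 lower of 12. In VAT against SPLN 26 replication genes and 42 mitosis genes were higher and 0 lower, where 20.3% of all genes were higher and 17.2% lower. In BAT against SPLN 0 replication genes were higher and 1 lower, and 5 mitosis genes were higher and 0 lower. The shares over all genes were 5.76% and 2.89%. With Cxcr3 in Foxp3-positive cells, 14 of 29 replication and 17 of 28 mitosis genes were higher, and with Il1rl1 1 of 27 and 15 of 30, with 0 lower in each. Of all genes 3.14% were higher and 1.81% lower with Cxcr3, and 4.66% and 3.16% with Il1rl1. Between Foxp3-positive and Foxp3-zero cells 3 of 52 mitosis genes were higher and 0 of 37 replication genes changed, where 8.11% of all genes were higher and 7.11% lower.

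Cells with at least 3 of the 45 members were also set against the 38 and 443 cells with 0. Of 131 list genes 10 were higher and 0 lower by edgeR (57 passed an unadjusted p of 0.05), where 0.751% of all other genes were higher and 0.108% lower. Among them were Dut, which prevents uracil entering DNA, the passenger subunit Cdca8, the kinetochore gene Spc24, Cenpw, Cks2 and Lmnb1. With the restricted set, at least 3 against 0, 111 of 133 list genes were higher and 10 lower, where 21.4% of all genes were higher and 17.2% lower. All 37 replication genes and 52 of 53 mitosis genes were higher. Both groupings rest on detecting replication and mitosis genes, so higher values of other such genes were fixed by the grouping and are no test. Both also differ in depth between the groups. Cells with 0 of the 45 members had median counts of 4836 and 1814 UMIs, and those with 3 or 4 had 5838.5 and 4618. The grouping by the restricted set was chosen after seeing the data.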

How the data were processed

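The authors deposited 1 sparse matrix per library with raw UMI counts of 55487 genes per barcode and of hashtags, written by software version 6.1.0 per the file headers; Cell Ranger, bcl2fastq, Seurat and mm10 are named in the submitters' processing notes, with settings not given in the sources used here. A further 7 hashtag rows belong to no label and were not used. The 3985 and 9004 cells kept had a minimum of 1000 UMIs and 500 genes, with mitochondrial UMIs below 10%. Hashtags were assigned by an expectation-maximisation mixture of 8 single and 28 pair states at a posterior above 0.95, with settings adjusted on hashtag counts alone, and 316 and 1467 multiplets were left out. Leiden clusters (scanpy 1.11.5, 2000 variable genes, 30 components, 15 neighbours, resolution 1) led by erythroid, fibroblast or myeloid markers were left out (229 and 642 cells). Gene totals were 29153747 and 43879975 UMIs. A class was set by at least 1 UMI of its gene at full depth, also where members were counted after thinning.

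Counts summed over cells were tested across all genes in edgeR 4.0.16 (R 4.3.3, TMM, filterByExpr with a minimum count of 10, quasi-likelihood, Benjamini-Hochberg adjustment), classes on 4 sums with a library term and tissues on hashed samples of at least 20 cells with an experiment term; the code was tested on simulated data. DESeq2 1.42.0 was an alternative, with scaling, filters, thinning, hashtag calls, blocks and left-out samples. Share differences used exact permutations (Python 3.11.15). The hashed sample pairs the classes, since both come from the same sample. Members and lists were chosen with earlier results of these data known. All members could be named. Full values are given for up to 10 with the largest called change in a comparison, for Mki67, Top2a, Rrm2, Pcna, Stmn1, Cdk1, Pclaf, Tyms, Mcm3 and Hmgb2, and for the 5 highest and 5 lowest by CPM; further members named beside these illustrate their role group. Promoters shown are the 3 of each phase with most matches, ties at the third taken in alphabetical order (Mcm6 and Pclaf tied with Mcm5, and Hmgb2 and Hmmr with Cks1b).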

Additional observations from a re-analysis of the deposited data

Results flagged for a closer look

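Dixon's test was applied to 68 groups of 4 hashed samples. These were shares in all T cells and in Foxp3-zero cells with or without Cxcr6, and CPM of members in Foxp3-zero cells. In 5 groups a sample lay farther from the others than the 95% limit allows, and chance alone flags about 5% of groups. Rrm2 stood at 6.46 CPM in SPLN replicate 4 and at 40.3 CPM in VAT replicate 1. Stmn1 stood at 110 CPM in SPLN replicate 4. In BAT replicate 2 Pcna stood at 75.2 CPM and Mcm3 at 30.9 CPM.

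Cells outside the comparisons also held the restricted members. In the erythroid, fibroblast and myeloid clusters that were left out, at least 3 of the 32 members were found in 6.55% of 229 cells of library 1 (median 5770.0 UMIs) and 1.71% of 642 cells of library 2 (median 1520.5 UMIs). Among hashtag multiplets of T cells the shares were 21.3% of 296 cells (median 11844.5 UMIs) and 8.10% of 1074 cells (median 4652 UMIs).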

How the results depend on the processing

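Of 300 alternatives to 50 results, left-out samples aside, 237 stayed close to the main result. A further 22 moved to clearly more calls or past the threshold, 36 to clearly fewer or below it, and 5 reversed. A share difference stayed close when it kept its direction and its side of the threshold. A count of members stayed close within a set factor of the main count, so calls could be lost. By markers, 31 members were higher in SAT than in SPLN in Foxp3-zero cells in place of 41, which is among the 237. Causes were not tested. Thinning and the choice of T cells by markers also leave fewer cells or UMIs, so fewer members can be tested. Depth limits the rare members: only 13 and 8 Foxp3-positive cells held at least 5 of the 32 restricted members, and tissue shares cannot reach a permutation p under 0.0556.

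Shares with at least 3 members. For Cxcr3 the difference was 5.13 points with at least 2 members, 10.47 after thinning, 11.8 with the restricted set and 8.47 with stricter hashtag calls, none past the threshold, while the restricted set after thinning gave 4.76, past it. For Il1rl1 it was -3.52 with at least 2 members. For Foxp3 it was 5.58 with at least 2 members, 2.58 after thinning and 5.45 with the restricted set, all past the threshold, and -3.10 with T cells taken by markers. For BAT minus SPLN it was 1.99 after thinning, 0.00515 with the restricted set and 0.453 with both, the last chosen after seeing the data. Leaving out each sample gave -0.440 to 1.76 for SAT minus VAT, 12.5 to 20.9 for Cxcr3, 5.81 to 7.13 for Cxcr6, 1.85 to 9.30 for Il1rl1 and 0.934 to 3.10 for Foxp3. For BAT minus SPLN it gave -9.22 to -5.11, for SAT minus SPLN 2.34 to 4.93 and for VAT minus SPLN 1.68 to 4.27.

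Class counts of members. With Cxcr3, 0 were higher by DESeq2, 0 thinned, 13 with multiplets kept and 1 by markers, and 0 lower by DESeq2, without a filter and thinned. With Il1rl1, 2 were higher by DESeq2, 1 thinned and 1 by markers, and 0 lower in each. With Cxcr6, 24 were higher thinned. With Foxp3, 1 was higher by DESeq2, 6 without a filter and 1 thinned, and 1 lower thinned, 1 with multiplets kept and 9 by markers. List genes in cells with at least 3 members were 57 higher and 6 lower after thinning and 111 higher and 10 lower with the restricted set.

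Tissue counts in Foxp3-zero cells. Thinned, 15 were higher in SAT and 11 in VAT than in SPLN, 2 in BAT than in SPLN, 2 in SAT than in VAT, and 10 lower in BAT than in SAT and 7 than in VAT. By markers, 4 were higher in BAT than in SPLN, 6 in SAT than in VAT, and 7 lower in BAT than in VAT. Without a filter, 26 were higher in BAT than in SPLN and 10 in SAT than in VAT. Leaving out each sample gave 7 to 25 for BAT over SPLN, 0 to 7 for SAT over VAT and 15 to 30 for BAT under VAT.

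Tissue counts in Foxp3-positive cells. SAT over SPLN gave 3 by DESeq2, 13 without a filter, 1 thinned and 0 by markers, with 0 lower by markers. VAT over SPLN gave 5 without a filter and 1 thinned, and SAT over VAT 1 without a filter. Without a filter BAT was lower in 2 against SPLN, 9 against SAT and 6 against VAT. Leaving out each sample gave 1 to 16 for SAT over SPLN, 0 to 11 for VAT over SPLN and 0 to 1 for BAT over SAT, the last at 0 without BAT replicate 1 or BAT replicate 4.

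Replicate block. With the hashed sample as a block, 4 members were higher and 0 lower with Cxcr3, 1 and 0 with Il1rl1, 26 and 1 with Cxcr6, and 2 and 0 with Foxp3. Tissue numbers share only a number: same-numbered samples correlated at -0.149 to 0.0707, over 0.1 in 0 of 24 and 0 of 12 pairs. A block on that number gave, in Foxp3-zero cells, 40 higher and 1 lower for SAT and for VAT over SPLN, 14 and 0 for BAT over SPLN, 0 and 0 for SAT over VAT, 1 and 35 for BAT over SAT, and 1 and 29 for BAT over VAT, and in Foxp3-positive cells the counts of the fit without it.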
